A study of Drosophila melanogaster with 6 samples.

Results

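The genes described here are the CPR cuticle protein genes of Drosophila melanogaster, named Cpr and then the chromosome band in which each gene lies, as in Cpr49Ac for band 49A. They were taken from the deposited table by that form of symbol, and kept where the scaled count averaged 10 or more over all 6 samples. A scaled count is a gene's read count divided by 1 size factor per sample. Of 13517 genes listed, 56 had such a symbol and 41 reached the mean of 10. The other 15 CPR genes stayed below it. Cpr62Bc and Cpr62Bb lay just inside the threshold, with means of 11.2 and 16.5, and Cpr92F and Cpr50Cb just outside, with 6.67 and 5.44.

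RNA was sequenced from muscle-enriched lysates of late third-instar larvae. All larvae carried Mhc-Gal4, a driver that uses the promoter of the myosin heavy chain gene to switch on UAS transgenes in muscle. In the control group it drove UAS-mCherryRNAi, against a fluorescent protein gene that the fly lacks. In the other group it drove UAS-twinstarRNAi, against twinstar (tsr), which encodes cofilin, a protein that cuts actin filaments. Each group had 3 samples, labelled as biological replicates, and each sample pooled 7 to 10 larvae, so spread between single larvae cannot be seen. The tissue field of the labels says adult body wall muscle, while the growth protocol says larvae. The sex and the age in hours are not given in the sources used here.

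CPR proteins carry the Rebers and Riddiford consensus, a stretch that binds chitin, and together with chitin fibres they build the insect cuticle. They are made and secreted by the cells that lie under cuticle, chiefly epidermis and trachea, whereas the driver acts in muscle. Members differ in the kind of cuticle and in the time at which they are used, because pulses of the moulting hormone ecdysone and the transcription factors it induces switch sets of cuticle genes on and off between moults and around pupariation. Many CPR genes lie side by side in tandem arrays.

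The label of the knockdown was checked first. For tsr the control samples, given here and throughout in the order of replicates 1 to 3, had 39133, 29266 and 25816 scaled counts, and the knockdown samples had 6966, 7070 and 5035. The groups did not overlap, and on average the knockdown kept 20.2% of the control level (two-sided exact permutation p = 0.1, the smallest that 3 samples against 3 allow). Between 37138289 and 41900871 reads per sample fell in genes. Over all tested genes control replicate 2 stood apart from the other controls (Pearson r of 0.759 and 0.813 across genes on log2(scaled count + 1), against 0.951 between control replicates 1 and 3). Muscle transcripts were abundant in all 6 samples: the 15 muscle markers summed to between 3633654 and 5337412 scaled counts in the controls and between 6422394 and 9126750 in the knockdown, and 1 of them rose. The summed level of the 19 epidermal markers overlapped between the groups, at 97804 to 110226 and 94105 to 106049, and 4 of them fell. Single epidermal markers often did not overlap. In 8 of the 19 every knockdown sample was below every control, against 19.6% of tested genes. In 2 of them every knockdown sample was above, against 16.8%. That of the 8 tracheal markers was 151013 to 203955 in the controls and 132417 to 152185 in the knockdown. Of these markers 3 fell (serp, obst-A and pio, limma adjusted p = 0.0471, 0.0375 and 0.0319) while 0 rose. The others, trh, btl, Gasp, verm and rib, did not pass, with log2 fold changes of 0.13, 0.36, 0.14, 0.03 and 1.84. The median of the tracheal list was 0.08. The 6 neuronal markers had sums of 4170 to 7088 in the controls and 16016 to 18522 in the knockdown, and 3 of them rose. The summed levels of fat body, blood cell and gut markers overlapped between the groups. Single genes of these lists did not: of 8 fat body markers Fbp1 and Adh fell (limma adjusted p = 0.0122 and 0.0416) and Lsp1gamma rose (limma adjusted p = 0.0452), of 8 blood cell markers He fell (limma adjusted p = 0.0311), and 0 of 6 tested gut markers passed. Among all tested genes 7.02% fell and 4.58% rose, and some of these marker counts are near those shares. No marker of the cell type lists was at 0 in all samples, and the part of these markers in the CPR results was not tested. In such bulk samples, fewer cuticle-making cells and less RNA of a gene in each of those cells cannot be told apart.

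More CPR genes were lower than higher in the knockdown. By limma on log2(scaled count + 1), with Benjamini-Hochberg adjustment over all 11720 genes with a mean of at least 10, 13 of the 41 genes (31.7%) fell and 2 (4.88%) rose at an adjusted p under 0.05, where 7.02% of all tested genes fell and 4.58% rose. The share that rose was thus near that of all genes. The groups did not overlap in 18 of the 41 with the knockdown lower (43.9%, against 19.6% of tested genes) and in 3 with the knockdown higher (7.32%, against 16.8%), 21 in either direction, against 36.4%. A fall or a rise together was called in 15 (36.6%), against 11.6%. The median log2 fold change was -0.99, and it was 0.06 over all tested genes. The filter on the mean bears on these counts, since 7 of the 41 had only a control mean of 10 or more and 1 had only a knockdown mean of 10 or more. Of the 33 with both means at 10 or more, 12 fell (36.4%) and 2 rose (6.06%), where 7.11% and 4.65% of all genes with both means at 10 or more did. Without any filter, 10 of the 56 listed genes fell (17.9%) and 2 rose (3.57%), against 5.70% and 3.28% of all genes, and 0 of the 15 below the mean of 10 passed the threshold. The labels call the samples biological replicates and say nothing of how the pools were collected. These p-values set the group difference against the spread between the pools, drawn by limma toward that of other genes. A difference in collection shared by all pools of a group would not show in that spread.

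The counts depended on single samples. Without control replicate 2 they were again 2 higher and 13 lower, against 20.7% and 7.86% of tested genes. Without control replicate 1 there were 8 higher (19.5%, against 5.30% of tested genes) and 7 lower (17.1%, against 5.0%). Without control replicate 3 there was 1 higher and 4 lower, against 0.811% and 2.16% of tested genes. Without knockdown replicate 1 it was also 1 and 4, against 0.350% and 1.22%. Without knockdown replicate 2 there were 2 higher and 5 lower, against 0.956% and 2.18%, and without knockdown replicate 3 there were 2 and 9, against 1.16% and 4.16%. On reads recovered from the scaled counts, 2 CPR genes were higher and 10 lower by edgeR, all among the 15 that limma called, against 3.24% and 6.65% of tested genes. By DESeq2 3 were higher and 18 lower, against 10.7% and 13.4%.

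**Figure D1:**
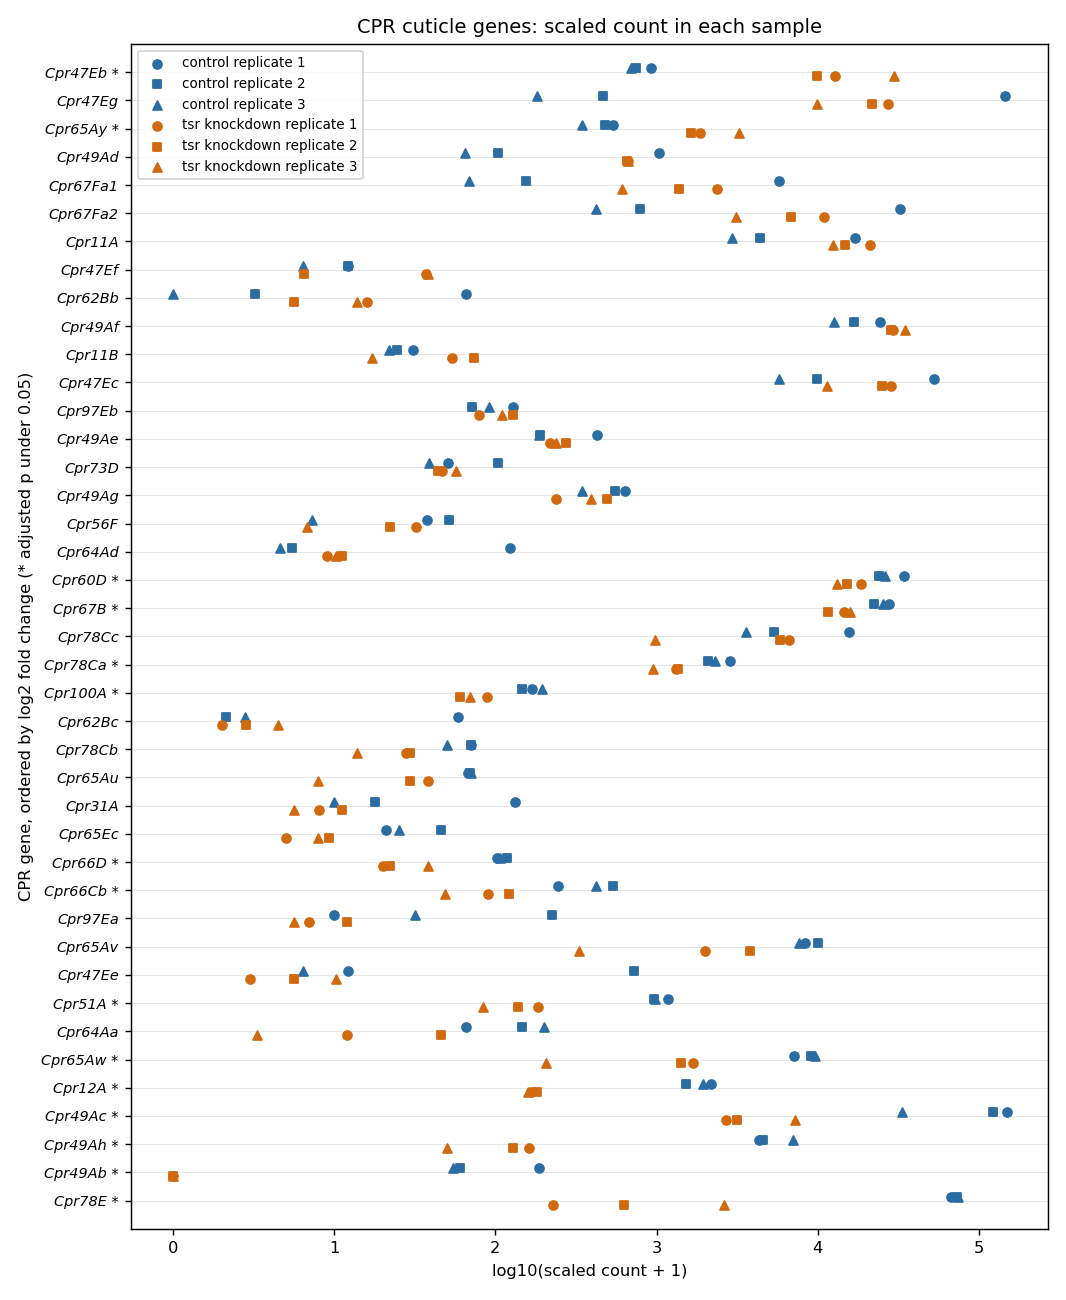
Scaled count of each of the 41 CPR genes in each sample, on a log10(scaled count + 1) axis, with control samples in blue and tsr knockdown samples in orange (circle, square and triangle for replicates 1, 2 and 3). Genes run from the lowest log2 fold change at the bottom to the highest at the top, and an asterisk marks an adjusted p under 0.05. Cpr78E at the bottom is tight in the controls, whereas Cpr47Eg near the top spreads over the widest range of any control group.

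Cpr49Ac and Cpr78E, the CPR genes with the highest mean counts in the controls, fell to a few percent of control. Cpr78E (FBgn0037114) is a short gene of 463 exon bases on the minus strand of arm 3L, at 21666452 to 21666980 in dm6. It had 67616, 73216 and 73851 scaled counts in the controls and 227, 625 and 2619 in the knockdown. The controls were within 1.09 times of each other, and every knockdown sample was far below them. The mean went from 71561 ± 3431 to 1157 ± 1281 (SD, n = 3 per group), which is 1.62% of the control level and a log2 fold change of -6.63 (SE 0.83, limma adjusted p = 0.0108). Without control replicate 3 the adjusted p was 0.052 at a log2 fold change of -6.61.

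Cpr49Ac (FBgn0033725) had 149164, 122449 and 33158 scaled counts in the controls and 2697, 3161 and 7184 in the knockdown. Control replicate 3 was much lower than the other controls but still above all knockdown samples. The fall was to 4.28% of the control mean (log2 fold change -4.42, SE 0.66, limma adjusted p = 0.0161). The call was lost without knockdown replicate 1 (-4.15, adjusted p = 0.0767) and without knockdown replicate 2 (-4.26, adjusted p = 0.0638).

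Cpr49Ah (FBgn0033731), at the other end of the same array, had 4319, 4555 and 6987 scaled counts in the controls and 161, 128 and 48.8 in the knockdown, or 2.12% of the control mean (log2 fold change -5.67, SE 0.47, limma adjusted p = 0.00403). Cpr49Ab (FBgn0050042) had 185, 59.4 and 53.3 in the controls and no read in any knockdown sample. Against a floor of 3 reads per library, its mean was at least 32.2-fold lower (fitted log2 fold change -6.40, which depends on the added 1, limma adjusted p = 0.0133). The call for Cpr49Ab was lost without control replicate 3 (adjusted p = 0.0547) and without knockdown replicate 1 (adjusted p = 0.0581).

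Cpr12A (FBgn0030494), on the X chromosome at 13543643 to 13544907, was even within both groups. It had 2175, 1529 and 1930 scaled counts in the controls and 166, 180 and 159 in the knockdown, with neither group spreading by more than 1.42 times. The mean went from 1878 ± 326 to 168 ± 10.7 (SD, n = 3 per group), and the log2 fold change was -3.46 (SE 0.17, limma adjusted p = 0.00111). Cpr51A (FBgn0033942) had 1174, 960 and 975 in the controls and 184, 138 and 82.5 in the knockdown, a log2 fold change of -3.0 (SE 0.31, limma adjusted p = 0.00719). Cpr12A, Cpr51A and Cpr49Ah kept their calls whichever sample was left out.

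The other 7 genes that fell were less secure. Cpr65Aw (FBgn0052404) had 7168, 9039 and 9677 scaled counts in the controls and 1674, 1413 and 204 in the knockdown, a log2 fold change of -3.44 (SE 0.80, limma adjusted p = 0.0459), with knockdown replicate 3 far below the other knockdown samples. Cpr66Cb fell to 21.4% of the control mean, Cpr66D to 23.9% and Cpr100A to 42.8%. Cpr66Cb (FBgn0035875) had 245, 537 and 422 scaled counts in the controls and 88.8, 121 and 47.6 in the knockdown. Cpr66D (FBgn0052029) had 101, 117 and 106, and then 19.0, 21.1 and 37.2. Both sets of controls lay wholly above the knockdown.

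Cpr60D, Cpr67B and Cpr78Ca were abundant genes with smaller changes. Cpr60D (FBgn0050163) had 34257, 24118 and 26268 scaled counts in the controls and 18648, 15250 and 13143 in the knockdown. Cpr67B (FBgn0035985) had 27725, 22343 and 25567, and then 14509, 11591 and 15819. Both stood at about the same fraction of control, 55.6% and 55.4%, with log2 fold changes of -0.85 (SE 0.19, limma adjusted p = 0.0449) and -0.86 (SE 0.16, limma adjusted p = 0.0275). Cpr78Ca (FBgn0037067) went from 2423 ± 388 to 1204 ± 224 (SD, n = 3 per group, limma adjusted p = 0.028). Each of these 7 genes lost its call in 4 or 5 of the 6 fits that left out a sample, at adjusted p-values from 0.0547 to 0.127, with the same direction throughout. Removing control replicate 3, knockdown replicate 1 or knockdown replicate 2 ended all 7 calls.

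Both genes that rose did so in every knockdown sample. Cpr47Eb (FBgn0033598) is a gene of 817 exon bases in 1 exon. It had 928, 748 and 695 scaled counts in the controls and 12782, 9946 and 29696 in the knockdown. The lowest knockdown sample was far above the highest control, and the mean was 22.1-fold higher, at 17475 ± 10679 against 790 ± 122 (SD, n = 3 per group; log2 fold change 4.31, SE 0.41, limma adjusted p = 0.00556). Its call held whichever sample was left out.

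Cpr65Ay (FBgn0085300) had 539, 475 and 342 scaled counts in the controls and 1848, 1636 and 3243 in the knockdown. It was 4.96-fold higher (log2 fold change 2.27, SE 0.31, limma adjusted p = 0.0133). Its adjusted p was 0.0526 without control replicate 3 and 0.0579 without knockdown replicate 1. In both genes knockdown replicate 3 was the highest sample. Cpr49Af had 24296, 16741 and 12570 in the controls and 29159, 28576 and 34736 in the knockdown. Its groups did not overlap either, but it was not called (log2 fold change 0.83, SE 0.25, limma adjusted p = 0.0872). Without control replicate 1 it was called (1.08, limma adjusted p = 0.0327), but in no other fit that left out a sample.

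A further set of genes set control replicate 1 apart from the other controls. The highest control was at least 3 times the lowest in 17 of the 41 genes (41.5%, against 27.6% of tested genes), and control replicate 1 was the highest of all 6 samples in 20 (48.8%, against 18.6%). In 11 of the 41 CPR genes (26.8%) control replicate 1 had at least 3 times the scaled count of both other controls, where 2.70% of all tested genes did. For control replicate 2 the same count was 2 of 41 (4.88%), against 16.1% of all tested genes, and for control replicate 3 it was 0, against 0.538%. The factor of 3 was chosen after the values were seen, and no test was made of it. In 7 of the 11, all knockdown samples lay between control replicate 1 and the other controls. That was not counted among all tested genes, and picking genes by a high control replicate 1 makes it likelier. It is thus not a result about CPR genes. For the same reason, fits without control replicate 1, given below, lower the control mean by choice. Their p-values are no support for a rise.

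Cpr47Eg (FBgn0086519), a gene of 421 exon bases, was the extreme case. It had 146239 scaled counts in control replicate 1, 465 in control replicate 2 and 180 in control replicate 3, and 27301, 21799 and 9958 in the knockdown. Control replicate 1 was thus 814 times control replicate 3, and the knockdown samples stood between. The direction of the difference depended on the scale: the log2 fold change was 2.97 on log2(scaled count + 1) (SE 2.48, limma adjusted p = 0.47) and -1.34 by edgeR on the recovered reads (adjusted p = 0.809). Without control replicate 1 it was 5.96 (limma adjusted p = 0.0157). No other fit that left out a sample passed, and without control replicate 3 it was 1.13 (limma adjusted p = 0.817).

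The neighbouring genes Cpr67Fa1 and Cpr67Fa2, whose annotated spans are 1013 bases apart on arm 3L, behaved alike. Cpr67Fa2 had 32521, 793 and 421 scaled counts in the controls and 11019, 6819 and 3099 in the knockdown. Cpr67Fa1 had 5791, 154 and 67.7, and then 2379, 1375 and 610. The ratio of Cpr67Fa2 to Cpr67Fa1 stayed between 4.63 and 6.21 in the 6 samples while their levels moved far more. Reads aligned to more than 1 place were not assigned to a gene, so if these genes share sequence their counts are uncertain. Neither passed the threshold in the 6 samples (limma adjusted p = 0.537 and 0.583), and both did without control replicate 1, at 3.61 for Cpr67Fa1 (adjusted p = 0.0423) and 3.41 for Cpr67Fa2 (adjusted p = 0.038). Neither passed in any other fit that left out a sample.

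Cpr49Ad had 1028, 103 and 64.1 scaled counts in the controls and 663, 654 and 667 in the knockdown, so the knockdown samples had an SD of 6.60 around a mean of 661, while the highest control was 16.04 times the lowest. Cpr47Ec had 52484, 9838 and 5746, and then 28390, 25178 and 11423. Cpr11A had 17056, 4411 and 2959, and then 21275, 14849 and 12468. None of these 3 passed the threshold over the 6 samples. Without control replicate 1, Cpr49Ad was at 3.01 (limma adjusted p = 0.011), Cpr11A at 2.13 (adjusted p = 0.0256) and Cpr47Ec at 1.42 (adjusted p = 0.132). Cpr49Ad and Cpr11A passed in no other fit that left out a sample. In Cpr47Eg, Cpr47Ec, Cpr67Fa1, Cpr67Fa2, Cpr11A and Cpr78Cc alike, knockdown replicate 1 was the highest and knockdown replicate 3 the lowest of the knockdown samples. This order was not particular to them. It was also seen in Cpr49Ah, Cpr51A, Cpr60D and Cpr65Aw, which fell, and in Cpr56F and Cpr65Au, and it was not seen in Cpr49Ad. How many of all tested genes had this order was not counted. Control replicate 1 also held most salivary glue RNA, with 103419 scaled counts summed over 6 glue genes. The sums were 39022 in control replicate 2 and 31.6 in control replicate 3. In the knockdown these sums were 22.9, 10468 and 49.9. The part of these glue-producing cells in the CPR differences was not tested.

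Cpr31A, Cpr62Bb, Cpr62Bc and Cpr64Ad were also highest in control replicate 1, with 57.8 to 131 scaled counts there and at most 16.8 in any other sample. The knockdown samples lay between control replicate 1 and the other controls in Cpr62Bb and Cpr64Ad, but not in Cpr31A and Cpr62Bc. Cpr49Ab, which fell, was also among the 11 genes, at 185 against 59.4 and 53.3 in the other controls. Cpr47Ee and Cpr97Ea were instead high in control replicate 2. Cpr47Ee had 722 scaled counts there, 11.1 and 5.42 in the other controls and at most 9.29 in the knockdown. Cpr97Ea had 222 there, 8.89 and 30.7 in the other controls and at most 11 in the knockdown. The tanning genes ple and e, for tyrosine hydroxylase and beta-alanyl dopamine synthase, were high in that control as well, at 276099 and 99627 scaled counts, against at most 1323 and 81.2 in the other samples.

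**Figure D2:**
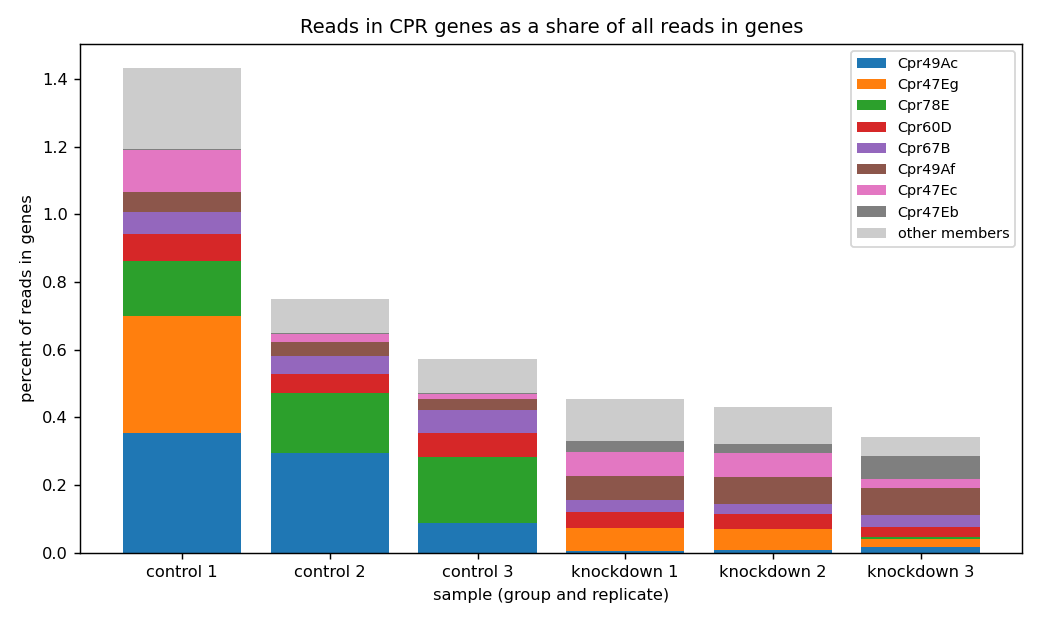
Reads in the 41 CPR genes as a percentage of all reads in genes, 1 stacked bar per sample, with the genes of highest count in colour and the others in grey. The share is 1.43% in control replicate 1, 0.751% and 0.573% in the other controls and 0.342% to 0.453% in the knockdown, where Cpr49Ac and Cpr78E no longer show as the main parts.

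As a whole the 41 genes took up 1.43%, 0.751% and 0.573% of the reads in genes of the controls and 0.453%, 0.432% and 0.342% in the knockdown. Every control was above every knockdown sample, although the share varied more among the controls than between the lowest control and the highest knockdown sample. Leaving Cpr47Eg out, the shares were 1.08%, 0.750% and 0.573% against 0.386%, 0.372% and 0.319%. The order of the groups rested on Cpr49Ac and Cpr78E. They held 39.2% and 23.4% of CPR reads in control replicate 2, and 15.3% and 34.0% in control replicate 3. With both left out, the shares of control replicates 2 and 3 were below those of all knockdown samples. The make-up differed as well. Cpr49Ac or Cpr78E was the largest part in each control, with Cpr49Ac at 24.7%, 39.2% and 15.3% of CPR reads. In all 3 knockdown samples Cpr49Af was the largest part, at 15.8%, 18.4% and 23.4%. Per kilobase of exon, Cpr78E stood highest in the controls, with a mean of 154559 scaled counts per kilobase, followed by Cpr47Eg at 116297. In the knockdown Cpr47Eg led, at 46761, followed by Cpr49Af at 29189 and Cpr47Ec at 29118. Control replicate 1 alone set the rank of Cpr47Eg in the controls.

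**Figure D3:**
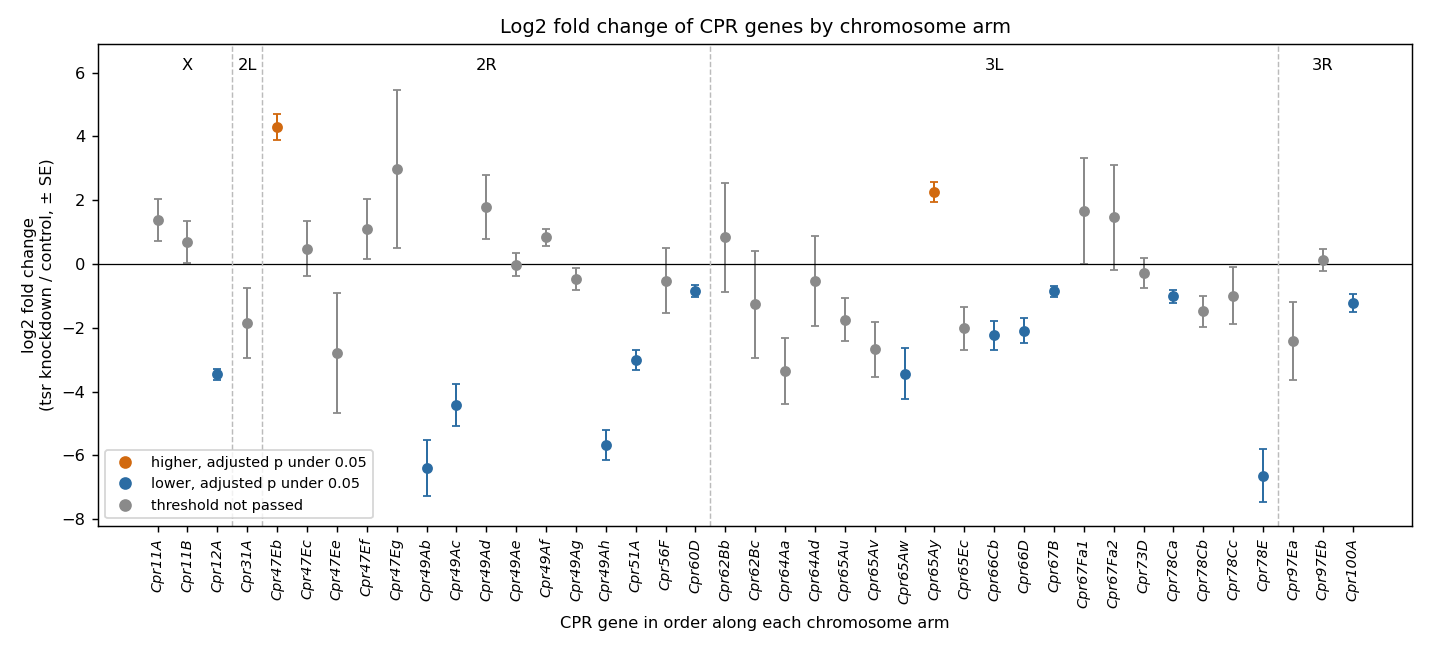
Log2 fold change, tsr knockdown over control, of each CPR gene with its standard error (limma), in the order of the genes along each chromosome arm. Orange marks a rise and blue a fall at an adjusted p under 0.05, and grey marks genes that did not pass. Falls stand on the X, 2R, 3L and 3R arms, and the longest bar is that of Cpr47Eg, whose SE is 2.48.

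By position, 15 of the 41 genes lay on arm 2R, 19 on 3L, 3 on 3R, 3 on the X and 1 on 2L. Bands with 2 or more of them held 27 genes, in 8 bands, and 14 bands held 1 gene each. The genes were short, with a median of 961 exon bases against 1920 for tested genes with an annotation, and 25 of 41 (61.0%) had 2 exon blocks, against 19.2% of those genes.

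Within bands 49A, 47E and 65A the genes had log2 fold changes of both signs. Band 49A holds 7 of the 41 genes and Cpr49Aa, which was below the mean of 10, within 38545 bases. Cpr49Ab, Cpr49Ac and Cpr49Ah fell. Between Cpr49Ac and Cpr49Ah lie Cpr49Ad, Cpr49Ae, Cpr49Af and Cpr49Ag, and 0 of these 4 passed the threshold, with log2 fold changes of 1.79, -0.02, 0.83 and -0.47. Cpr49Ae had 427, 187 and 184 scaled counts in the controls and 217, 275 and 237 in the knockdown, and Cpr49Ag had 636, 549 and 343, and then 236, 493 and 389. Both overlapped between the groups. The ratio of Cpr49Ac to Cpr49Af was 6.14, 7.31 and 2.64 in the controls and 0.0925, 0.111 and 0.207 in the knockdown. Cpr49Ac was thus the more abundant of these neighbours by count in all controls and the less abundant in all knockdown samples.

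Band 47E holds 5 of the 41 genes, and Cpr47Ea and Cpr47Ed below the mean of 10, within 26695 bases. Of the 5, Cpr47Eb rose and the other 4 did not pass the threshold, with log2 fold changes from -2.78 to 2.97. Cpr47Ef was a low gene, with 11.1, 11.2 and 5.42 scaled counts in the controls and 35.9, 5.51 and 37.2 in the knockdown. In band 65A, Cpr65Au, Cpr65Av and Cpr65Aw were each lower in all knockdown samples than in any control, and Cpr65Ay, 15661 bases farther along, was higher. Cpr65Av had 8299, 9981 and 7684 scaled counts in the controls and 1987, 3780 and 330 in the knockdown (log2 fold change -2.67, SE 0.86, limma adjusted p = 0.102). Cpr65Au had 66.7, 68.4 and 69.5, and then 36.9, 28.5 and 6.97 (limma adjusted p = 0.153). An antisense RNA is annotated over most exon bases of Cpr65Au, and whether counting used strand is not given in the sources used here, so its count is uncertain.

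**Figure D4:**
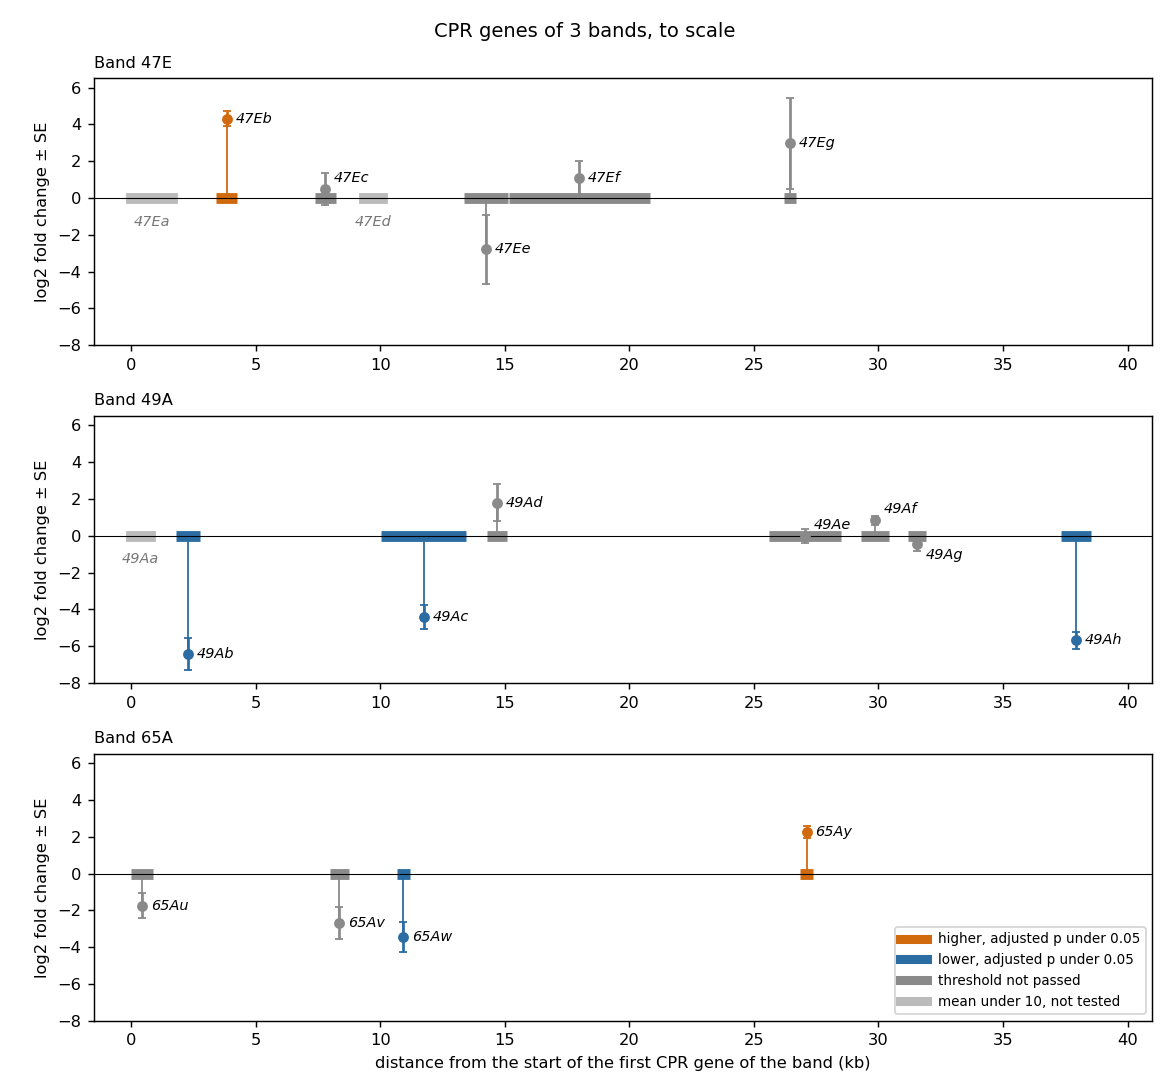
The CPR genes of bands 47E, 49A and 65A drawn to scale by their distance in kilobases from the start of the first one, with the log2 fold change and its standard error as a point above or below each gene. Orange is a rise and blue a fall at an adjusted p under 0.05, dark grey did not pass and light grey had a mean under 10. In band 49A the falls of Cpr49Ab, Cpr49Ac and Cpr49Ah enclose 4 genes near or above 0.

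In band 78C the abundant member by count was Cpr78Cc, which had 15610, 5389 and 3584 scaled counts in the controls and 6628, 5865 and 979 in the knockdown. Its groups overlapped (log2 fold change -0.99, SE 0.89, limma adjusted p = 0.497). Its neighbour Cpr78Cb had 70.0, 69.5 and 48.7, and then 26.9, 28.5 and 12.8, with no overlap but no call (limma adjusted p = 0.103). Cpr64Aa had 64.5, 146 and 199 in the controls and 11, 45 and 2.32 in the knockdown (limma adjusted p = 0.0919). Cpr65Ec had 20.0, 44.8 and 24.4, and then 3.99, 8.27 and 6.97 (limma adjusted p = 0.114). With Cpr65Au, Cpr65Av and Cpr49Af, these are the 6 genes whose groups did not overlap without a call. The remaining genes had overlapping groups: Cpr97Eb at 95.9 ± 28.5 and 105 ± 24.8, Cpr73D at 63.7 ± 34.7 and 48.3 ± 6.62, Cpr56F at 31.1 ± 22.6 and 19.3 ± 12.7, and Cpr11B at 24.8 ± 4.74 and 47.2 ± 28.6 scaled counts (SD, n = 3 per group, control and then knockdown). Cpr73D shares exon bases with Ogdh in the annotation, which makes its count uncertain.

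Other genes that build cuticle were set beside the CPR genes. Their counts, and those of the lists below, stand against 7.02% of all tested genes that fell and 4.58% that rose. Among 16 tested cuticle protein genes with the same chitin-binding consensus but other names, 4 fell and 0 rose, with a median log2 fold change of -1.38. The larval cuticle protein genes Lcp1 and Lcp2 were among the 4. Lcp1 had 1089723 ± 163461 scaled counts in the controls and 42701 ± 15291 in the knockdown (SD, n = 3 each), or 3.92% of control (limma adjusted p = 0.0029). Lcp2 went to 7.25% (limma adjusted p = 0.0228) and Acp65Aa, an adult cuticle protein gene, to 8.71% (limma adjusted p = 0.0148). Lcp3, with 1221229 scaled counts on average in the controls, was lower in each knockdown sample than in any control but did not pass (log2 fold change -0.38, limma adjusted p = 0.535). In band 65A, Lcp65Ae, Lcp65Af, Lcp65Ag1 and Lcp65Ag2 were high in control replicate 1, as Cpr47Eg was, with 31030, 30899, 28041 and 4309 scaled counts there. The other controls had at most 510, 18.1, 179 and 38.8 of them.

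Of 15 tested genes of chitin synthesis and assembly, 7 fell and 0 rose, with a median of -0.49. rebuff (reb), which promotes chitin deposition, fell by 1.30 on the log2 scale (SE 0.14, limma adjusted p = 0.0081). knickkopf (knk) and retroactive (rtv), which are needed to organise chitin, fell by 0.81 (limma adjusted p = 0.0164) and 0.99 (limma adjusted p = 0.0164). The chitin synthase gene kkv had 21670, 19723 and 23722 scaled counts in the controls and 22559, 19534 and 25241 in the knockdown, so its groups overlapped (log2 fold change 0.04, limma adjusted p = 0.853). Of 10 tested tanning genes, 4 fell and 0 rose. AANATL2, Dhpr and Pu fell, with log2 fold changes of -3.18, -2.66 and -3.26 (limma adjusted p = 0.00588, 0.00807 and 0.0246). Pu encodes GTP cyclohydrolase and Dhpr a dihydropteridine reductase. The controls of Pu were uneven, at 8055, 29778 and 6341 scaled counts, against 1276, 982 and 1368 in the knockdown. The tanning genes ple, e and b, which did not pass, were also highest in control replicate 2.

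Of the 19 epidermal markers, 4 fell and 0 rose, namely ImpE2, pio, sn and neo (limma adjusted p = 0.0029, 0.0319, 0.0439 and 0.044). The lists share genes, so their counts are not independent. pio is also a tracheal marker, and kkv is in both the chitin and the epidermal list. Both the chitin and the tracheal list hold serp, verm, obst-A and Gasp. The junction and polarity genes cora, grh and crb had log2 fold changes of 0.43, -0.29 and -0.22 and did not pass, although cora was higher in each knockdown sample than in any control. Of the 14 factors of the ecdysone cascade, ftz-f1 rose, and EcR, the ecdysone receptor gene, and br (broad) fell. ftz-f1, which in the fly is known to act on cuticle genes after an ecdysone pulse has passed, had 624, 463 and 602 scaled counts in the controls and 1031, 1055 and 1236 in the knockdown (log2 fold change 0.98, SE 0.16, limma adjusted p = 0.0199). EcR and br had log2 fold changes of -1.04 and -1.52 (limma adjusted p = 0.0201 and 0.009). Hr3, Blimp-1, Eip74EF and Eip93F did not pass, with log2 fold changes of 1.01, -0.79, -0.93 and -1.46. All 4 were highest in control replicate 2, at 62.8, 951, 12367 and 1181 scaled counts, and Eip74EF was lower in each knockdown sample than in any control (limma adjusted p = 0.0696). The lists of other CPR-related genes lost calls when some samples were left out, and without control replicate 3 each but tanning kept 1 gene lower. Other omissions gained calls, with up to 5 genes lower in tanning, 6 among epidermal markers and 4 among ecdysone factors. The part of these factors in the CPR differences was not tested.

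**Figure D5:**
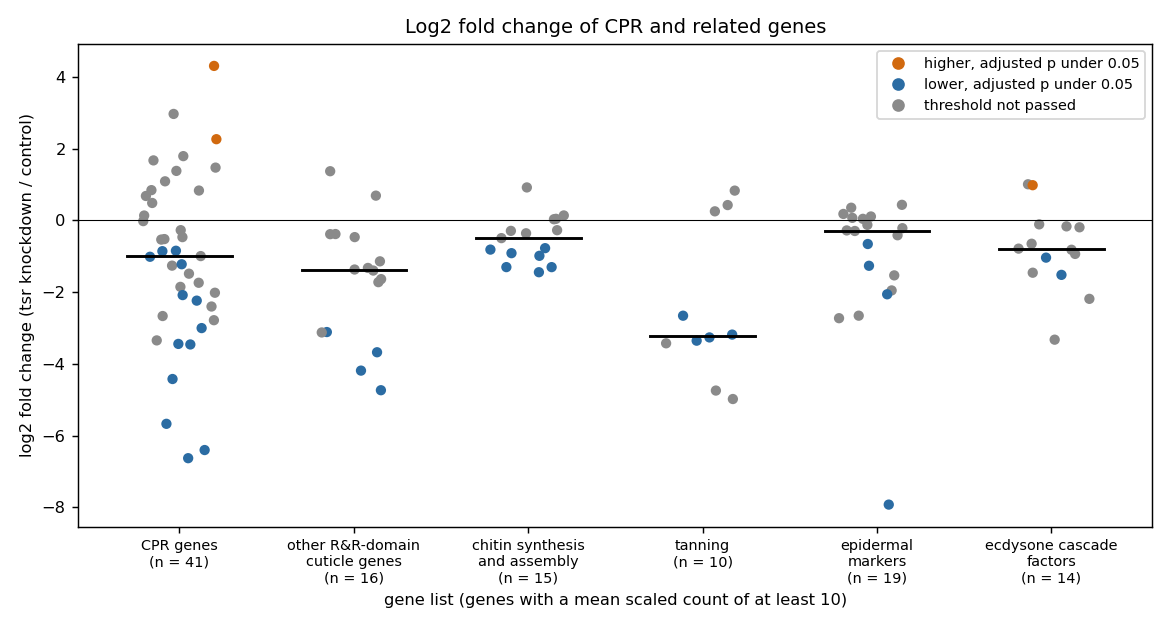
Log2 fold change, tsr knockdown over control, of each tested gene in 6 lists, 1 point per gene with horizontal scatter only for visibility and a black line at each list's median. Orange is a rise and blue a fall at an adjusted p under 0.05. The medians run from -3.22 for tanning to -0.29 for epidermal markers, with the CPR genes at -0.99. In the tanning genes ple, e, b and Pu, control replicate 2 was the highest of all samples.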

How the data were processed

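The authors deposited 1 table of scaled counts, a signal made by dividing each sample's reads per gene by a size factor. The submitters' processing notes name STAR 2.5.0a, Picard and HTSeq 0.5.3 with genome build dm6, without saying which step each did. The annotation release and the strand setting are not given in the sources used here. Rows for reads outside genes (4 rows, 19.4% to 27.0% of all reads) were left out.

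All values were whole multiples of 1 step per sample (100% to a tolerance of 0.01 read), and dividing by it gave the reads back. The main test was limma 3.58.1 in R 4.3.3 (lmFit, eBayes with a trend, no covariate) on log2(value + 1). Genes needed a mean of 10 or more, and p-values were adjusted over all of them with a threshold of 0.05. Fold changes are on that scale, where the added 1 understates changes of low genes. edgeR 4.0.16 and DESeq2 1.42.0 on recovered reads, other pseudocounts, filters and scalings, a replicate block and leaving out each sample were alternatives. The tests were checked on simulated counts in which no sample stood apart from its group. Some controls did so here, so that check does not cover such samples.

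The symbols of 5 genes, listed as dates, were restored from a gene name table that matched 13477 of 13517 genes. Positions and exon lengths come from the Ensembl release 115 annotation in dm6 coordinates. Genes were named by rule: tsr, each CPR gene past the threshold, the most abundant of each band, the 5 largest rises and falls, those next to the mean of 10, up to 3 genes per other list and 7 ecdysone factors. Other CPR genes, and the list genes kkv, Lcp3, Lcp65A members, cora, grh, crb, neo, ple, e and b, were named after their values were seen. So were the tracheal markers trh, btl, Gasp, verm and rib. The members and lists were chosen with earlier results of these data known. Totals differed little between samples, and low genes are the least precise. Amplified reads without molecular identifiers are not independent molecules.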

Additional observations from a re-analysis of the deposited data

How the results depend on the processing

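tsr kept its direction and its side of the threshold under all alternatives (log2 fold change from -2.33 to -2.28 with all 6 samples, and from -2.43 to -2.13 when 1 replicate was left out). The median log2 fold change of the CPR genes stayed from -1.24 to -0.86 with all samples and from -1.37 to -0.70 when 1 replicate was left out. Leaving out 1 replicate gave from 1 to 8 CPR genes higher and from 4 to 13 lower, and from 41 to 2426 of all genes higher and from 143 to 921 lower. It gave from 1 to 4 genes lower among other consensus-bearing cuticle genes, from 1 to 7 in chitin synthesis, from 2 to 5 in tanning, from 1 to 6 among epidermal markers and from 1 to 4 among ecdysone factors, a repeat added after seeing the data. DESeq2 called 3 CPR genes higher and 18 lower, gave 4 no adjusted p, and called 1258 of all genes higher and 1569 lower.

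With the replicate block, 1 CPR gene was higher and 4 were lower, and 24 of all genes were higher and 88 lower. Same-numbered samples are separate pools, and the correlations of their deviations were -0.46, -0.0322 and 0.192, so the numbers were not treated as pairs.

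Directions changed only in genes without a call over the 6 samples. edgeR and DESeq2 gave -0.0839 and -0.0863 for Cpr47Ec, -1.07 and -1.07 for Cpr62Bb, -0.48 and -0.49 for Cpr67Fa1, and -0.708 and -0.716 for Cpr67Fa2, and edgeR gave -1.34 for Cpr47Eg. Equal totals gave 0.00233 for Cpr49Ae. Leaving out a replicate took Cpr49Ae from -0.224 to 0.38, Cpr62Bc from -2.13 to 0.269, Cpr64Ad from -1.37 to 1.004, Cpr56F from -1.38 to 0.135, Cpr73D from -0.574 to 0.137, Cpr97Eb from -0.0607 to 0.356, Cpr47Ec from -0.174 to 1.42 and Cpr62Bb from -0.443 to 2.57. The cause was not tested.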
